A study of Mus musculus with 8 samples.

Results

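The genes examined were those of the cytosolic ribosomal proteins, the proteins that build the ribosomes of the cytoplasm. They were chosen by name, as every gene whose symbol is Rpl or Rps with a number and the usual suffixes, together with Rpsa, Rplp0, Rplp1 and Rplp2. The arrays held 171 probes for 83 such genes, among 39429 probes and 22427 genes tested in all. A further 6 symbols that fit the name rule had no matched probe (Rpl32l, Rpl6l, Rps12l1, Rps23, Rps3a2 and Rps3a3). The 83 genes fell into 43 of the large subunit, 30 of the small subunit, 3 of the stalk (Rplp0, Rplp1 and Rplp2) and 7 paralogs with a symbol ending in l or l1.

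Mouse embryonic stem cells of the pluripotent line R1 were transfected with a control siRNA or with either of 2 siRNAs against CnAb1, a splice variant of the calcineurin A beta subunit. All cells had been differentiated in embryoid bodies, aggregates in which stem cells begin to form the germ layers, for 48 h, and RNA was taken 48 h after transfection. The groups were Control (3 arrays), siRNA 1 (3 arrays) and siRNA 2 (2 arrays), all of this 1 line. The labels do not say whether replicates were separate cultures, so a p-value here reflects how much these arrays vary and nothing beyond, and that variation may be technical.

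Each ribosome joins a small subunit, which decodes the mRNA, to a large subunit, which forms the peptide bond, and its proteins are made in about equal numbers. Their mRNAs are among the most abundant of growing cells. Many of them begin with a run of pyrimidines, the terminal oligopyrimidine motif, through which mTOR signalling sets their translation. Pluripotent cells keep a large pool of these mRNAs, and translation per cell is known to increase as they differentiate.

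The arrays were 1-colour Agilent arrays on 3 slides. Slide 1 carried replicate 1 of each group, slide 2 carried Control replicate 2 and siRNA 1 replicate 3, and slide 3 carried Control replicate 3 and replicate 2 of both siRNAs. On every slide Control lay at position 1, siRNA 1 at position 2 and siRNA 2, where present, at position 3, so that group and position cannot be told apart. Between 68.0% and 75.1% of the spots were well above background, and 0 were saturated. The stem cell genes Nanog, Pou5f1, Sox2 and Zfp42 were well above background on all 8 arrays, as were T, a mesoderm gene, and the fibroblast genes Col1a1 and Thy1. Afp, an endoderm gene, was well above background on 6 of the 8. The probe for Ppp3cb, the gene of calcineurin A beta, stood at 0.52 to 0.74 in Control, 0.18 to 0.60 in siRNA 1 and 0.41 to 0.62 in siRNA 2 (log2 signal minus the array's 75th percentile). It is not known here whether that probe reads the CnAb1 variant, so it does not check the knockdown.

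Ribosomal protein probes lay at the bright end of the arrays. Of the 171 probes, 170 were well above background on all 8 arrays. Values are given as log2 signal minus the array's 75th percentile, and a gene is represented by its brightest probe. On that scale the mean over the arrays was 5 or more for 78 of the 83 genes. The other 5 were Rpl21 and the paralogs Rpl10l, Rpl39l, Rpl7l1 and Rpl3l. On each array, 78 of the 83 brightest probes exceeded the 95th percentile of all probes and 50 to 52 exceeded the 99th. Of all 171 probes, 147 or 148 exceeded the 95th percentile on each array and 73 to 76 the 99th. The members' SD within groups had a median of 0.087. It was lowest for Rps7, a small subunit protein, at 0.034 and highest for Rpl10l, a paralog of Rpl10 known from the testis, at 0.35.

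The main comparison asked how these genes stood in cells with either siRNA relative to Control. Most of them stood slightly higher in the siRNA arrays: 76 of 83 had a fitted log2 difference above 0, with a median of 0.094, or 1.07-fold. Among all genes tested 53% were above 0, and the median was 0.0077. The members' differences ran from -0.115 to 0.357, and their standard errors from 0.063 to 0.23. Limma called 0 members at an adjusted p under 0.05, where the share called among all genes was 0.0%. At an unadjusted p under 0.05 there were 4 members against 3.58% of all genes. All 4 were higher, against 2.28% of genes that were higher at that p. In 11 members all 5 siRNA arrays lay above all 3 Control arrays, against 2.47% of genes, and in 0 members did all lie below, against 0.985%. In bulk RNA, a change in the number of cells of a type and a change in RNA per cell cannot be told apart.

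The shift depended on how the arrays were scaled. After quantile normalization, which gives every array the same distribution of signals, 32 of 83 members stood higher and their median was -0.016. With normexp background correction followed by quantile normalization, 33 stood higher and the median was -0.0197. After quantile normalization the siRNA arrays lay wholly above Control in 1 member, Rpl7a, against 1.55% of genes. They lay wholly below in 4 members, Rpl12, Rpl31, Rplp1 and Rps25, against 1.31%. With array weights in limma, 17 members had an unadjusted p under 0.05 and 0 were called, against 6.57% of all genes at that p, of which 0 were called.

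**Figure D1:**
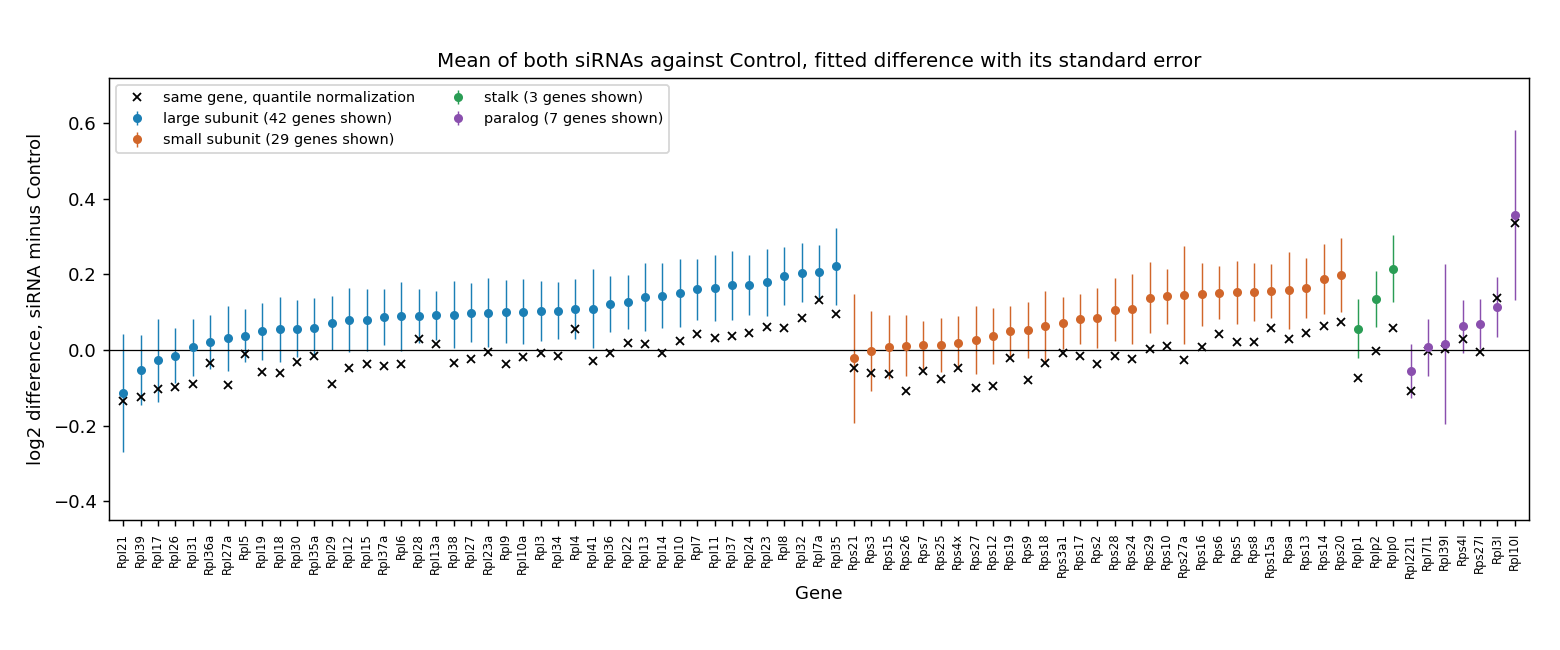
Fitted log2 difference of the mean of both siRNAs minus Control for 81 of the 83 genes, ordered within 4 role groups, as points with bars of 1 standard error; crosses give the same gene after quantile normalization. Of the 81 points, 74 lie above 0. Over all 83 genes the median is 0.094, and -0.016 after quantile normalization.

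The members stood at different levels from array to array. Against the mean of the Control arrays, their median was 0.047, -0.0054 and -0.046 on Control replicates 1, 2 and 3. It was 0.078, 0.166 and 0.042 on siRNA 1 replicates 1, 2 and 3, and 0.062 and 0.129 on siRNA 2 replicates 1 and 2. The 2 highest arrays were the siRNA arrays of slide 3, and Control replicate 3, the lowest, was on that slide too. The siRNA arrays overlapped Control, since siRNA 1 replicate 3 lay below Control replicate 1.

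The upper end of the whole signal distribution moved alongside. The 99th percentile of all probes, relative to its Control mean, was 0.035, 0.010 and -0.046 on the Control arrays. It was 0.077, 0.17 and 0.054 in siRNA 1 and 0.045 and 0.109 in siRNA 2, so that the same arrays were highest and lowest as in the members' medians. Because 73 to 76 of the 171 member probes lie above that percentile themselves, the members are part of it. After quantile normalization the members' array medians lay between -0.0199 and 0.0067. Whether RNA content, labelling or scanning differed between these arrays was not tested.

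**Figure D2:**
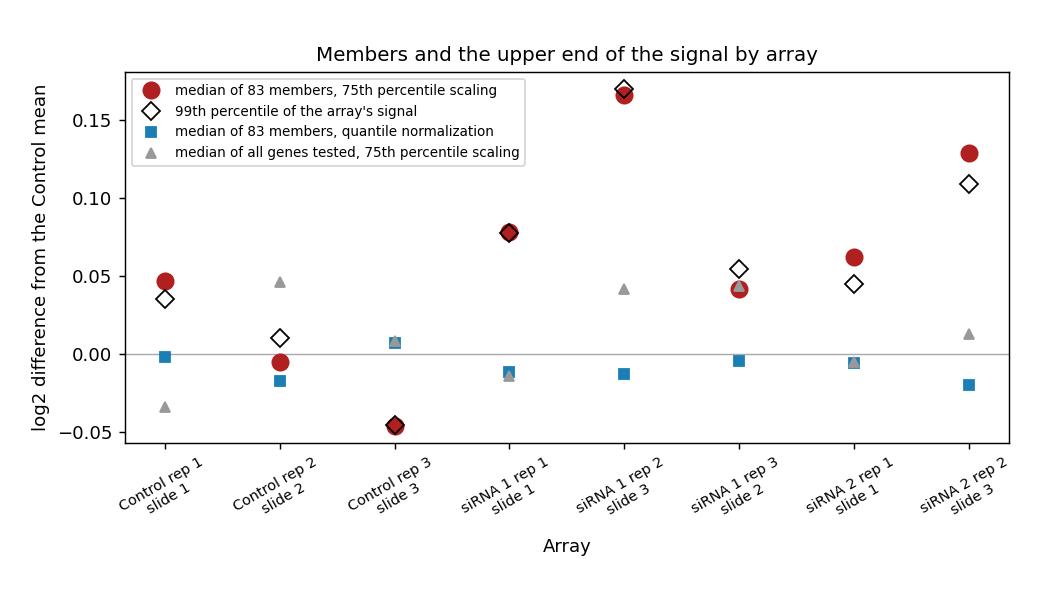
Log2 difference from the Control mean on each of the 8 arrays: the median of the 83 members with 75th percentile scaling (circles) and after quantile normalization (squares), the 99th percentile of the array's signal (diamonds) and the median of all genes tested (triangles). The circles run from -0.046 on Control replicate 3 to 0.166 on siRNA 1 replicate 2 and lie close to the diamonds, while the squares lie between -0.0199 and 0.0067.

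Within slides the difference between siRNA and Control varied in size. On slide 1 the members' median was 0.059 for siRNA 1 (53 of 83 higher) and 0.0145 for siRNA 2 (49 of 83). On slide 2 it was 0.041 for siRNA 1 (57 of 83). On slide 3 it was 0.194 for siRNA 1 (79 of 83) and 0.183 for siRNA 2 (72 of 83). All 5 within-slide medians were above 0 before quantile normalization, and those of slide 3 were the largest. The 5 differences share 3 Control arrays. On slide 1 the median of all genes was 0.0285 for siRNA 1 and 0.0178 for siRNA 2, the latter above the members' median. It was -0.00157 on slide 2, and 0.0325 for siRNA 1 and -0.0076 for siRNA 2 on slide 3. After quantile normalization the members' medians were, in the same order, 2.33e-05, -0.00412, -1.44e-05, -0.0256 and -0.0231. The 99th percentile differed between the same arrays by 0.04, 0.01, 0.04, 0.22 and 0.15. Without the arrays of slide 3, an alternative chosen after seeing the data, the median of the main comparison was 0.037.

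**Figure D3:**
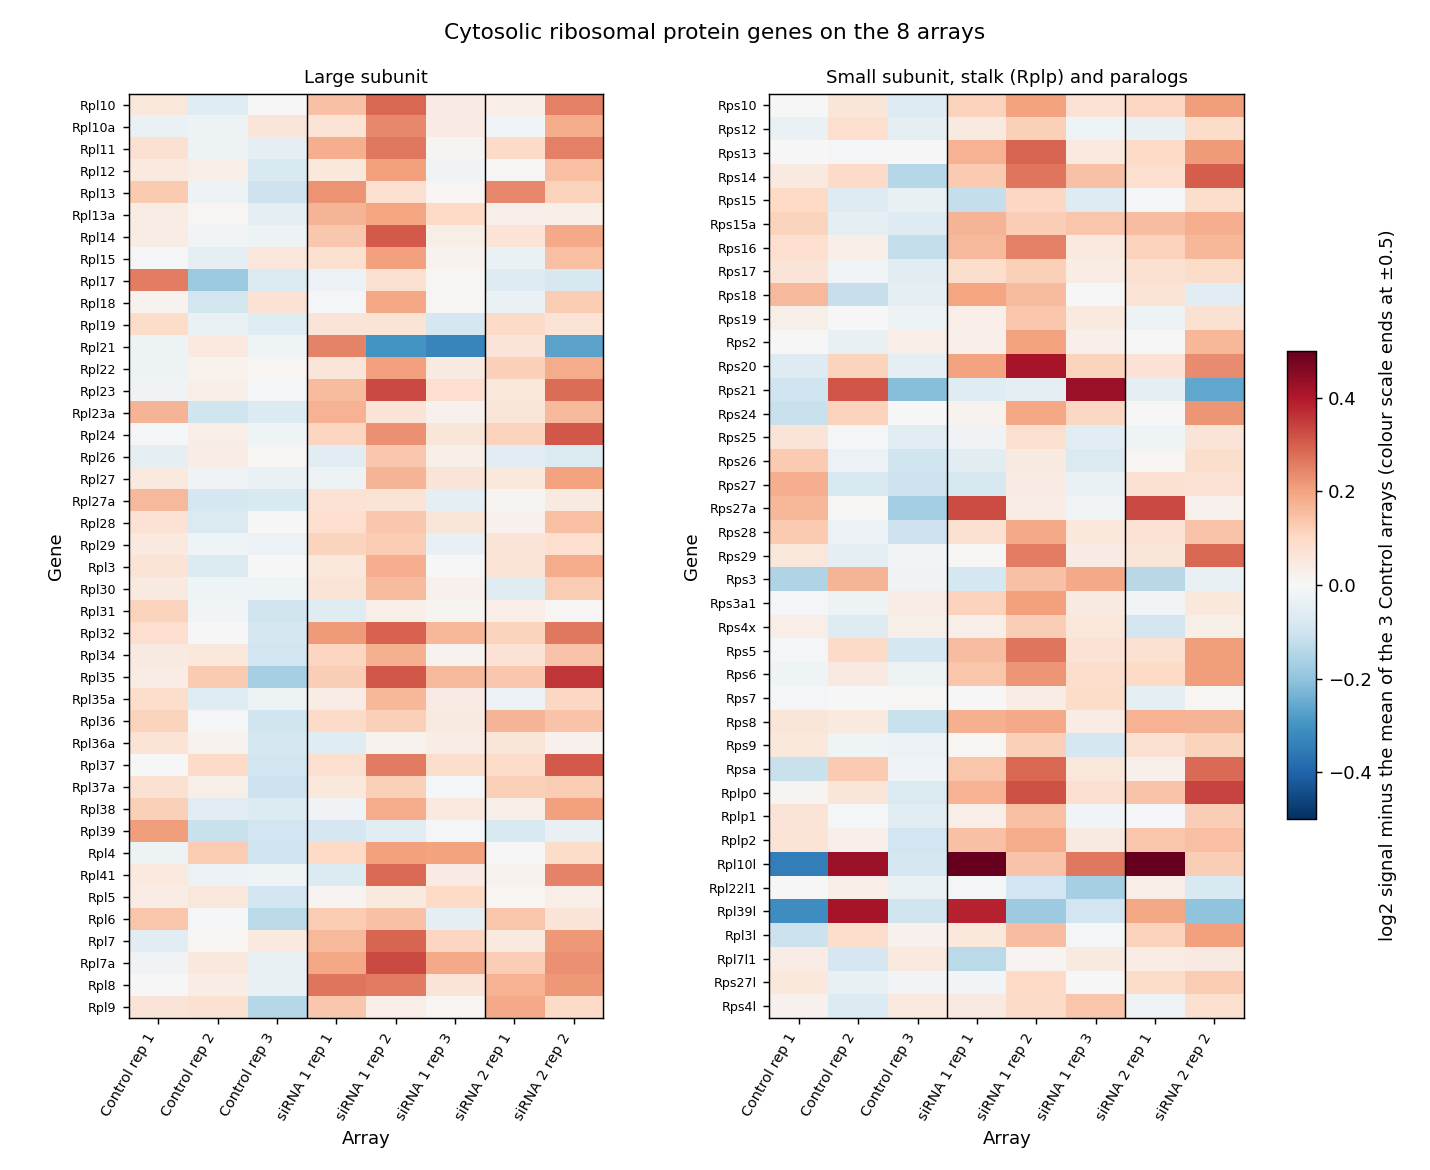
Log2 signal minus the mean of the 3 Control arrays for 81 of the 83 genes (rows) on the 8 arrays (columns), large subunit on the left, small subunit, stalk and paralogs on the right; red is higher and blue lower, and the colours end at a difference of 0.5. The columns of siRNA 1 replicate 2 and siRNA 2 replicate 2, both on slide 3, are red in most rows, with 78 and 73 of all 83 genes above the Control mean; Rpl21, Rps21, Rpl10l and Rpl39l stand out from the rows around them.

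The large subunit held 3 of the 4 members with the smallest p. Rpl7a, a protein of the outer face of the large subunit, stood at 6.63, 6.70 and 6.61 in Control, at 6.84, 6.98 and 6.84 in siRNA 1 and at 6.77 and 6.88 in siRNA 2. All 5 siRNA arrays lay above all 3 Control arrays. The fitted difference was 0.21 ± 0.07 (SE, n = 5 and 3), or 1.15-fold, with an adjusted p of 0.9998 in limma over all genes (Benjamini-Hochberg). It was 0.13 after quantile normalization. The gene had 4 probes, whose differences ran from 0.034 to 0.21.

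Rpl32 stood at 7.495, 7.41 and 7.33 in Control, at 7.62, 7.70 and 7.57 in siRNA 1 and at 7.52 and 7.67 in siRNA 2. The groups did not overlap, though siRNA 2 replicate 1 lay just above Control replicate 1. Rpl8, which lies close to the catalytic centre of the large subunit, stood at 7.78, 7.81 and 7.74 in Control. Its values were 8.04, 8.03 and 7.84 in siRNA 1 and 7.95 and 7.99 in siRNA 2, again without overlap. The fitted differences were 0.21 ± 0.08 for Rpl32 and 0.20 ± 0.08 for Rpl8 (SE, n = 5 and 3), with a limma adjusted p of 0.9998 for both. After quantile normalization they were 0.084 and 0.057. A second probe of Rpl8 overlapped between groups, with a difference of 0.041, or -0.070 after quantile normalization.

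In the large subunit as a whole, 39 of 43 genes stood higher, with a median of 0.098. The 4 lower ones were Rpl21, Rpl39, Rpl17 and Rpl26, and none of them separated the groups. Rpl21 stood at -0.29, -0.22 and -0.29 in Control, at -0.02, -0.57 and -0.60 in siRNA 1 and at -0.20 and -0.54 in siRNA 2. It was lower than Control on siRNA arrays of slides 2 and 3 and higher on those of slide 1, and its difference was -0.115 ± 0.16 (SE, n = 5 and 3; limma adjusted p = 0.9998). Rpl39, a short protein of the exit tunnel, stood at 6.72 on Control replicate 1 and between 6.40 and 6.51 on the other 7 arrays. Rpl17 showed the same kind of pattern, with 6.98 on Control replicate 1 and 6.54 to 6.80 elsewhere. Differences were -0.053 for Rpl39, -0.027 for Rpl17 and -0.015 for Rpl26, each smaller than its standard error.

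In the small subunit 28 of 30 genes stood higher, with a median of 0.096 and 0 at an unadjusted p under 0.05. Rps20, a protein of the subunit's head, had the largest difference there, 0.199 ± 0.098 (SE, n = 5 and 3; limma adjusted p = 0.9998). It stood at 7.56, 7.73 and 7.57 in Control, at 7.82, 8.03 and 7.73 in siRNA 1 and at 7.69 and 7.86 in siRNA 2. Control replicate 2 lay among the siRNA arrays, so the groups overlapped. Rps6, the substrate of the S6 kinases downstream of mTOR, stood at 7.32, 7.38 and 7.31 in Control, at 7.48, 7.56 and 7.42 in siRNA 1 and at 7.44 and 7.55 in siRNA 2. All siRNA arrays were above Control by this probe. Of its other probes, 1 stood at 0.056 and a dim one at -0.053.

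The 2 lower genes of the small subunit were Rps21 at -0.022 and Rps3 at -0.0031, the latter a protein at the mRNA entry channel. Rps7, the least variable member, stood between 6.34 and 6.48 on all 8 arrays, with a difference of 0.013 ± 0.063 (SE, n = 5 and 3; limma adjusted p = 0.9998). Its Control arrays lay between 6.38 and 6.40, inside the range of the siRNA arrays.

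The stalk, a complex on the large subunit that recruits the factors of translation, stood higher in 3 of 3 genes. Rplp0, its scaffold, stood at 8.13, 8.18 and 8.04 in Control, at 8.29, 8.44 and 8.20 in siRNA 1 and at 8.26 and 8.46 in siRNA 2. The groups did not overlap, and the difference was 0.22 ± 0.09 (SE, n = 5 and 3; limma adjusted p = 0.9998), or 0.059 after quantile normalization. The 2 acidic stalk proteins overlapped between groups, with differences of 0.057 for Rplp1 and 0.135 for Rplp2. Rpsa, which is also known as the laminin receptor precursor, stood at 7.59, 7.83 and 7.68 in Control, at 7.84, 7.99 and 7.76 in siRNA 1 and at 7.73 and 7.99 in siRNA 2. Control replicate 2 was within the siRNA range, and the difference was 0.158 ± 0.102 (SE, n = 5 and 3; limma adjusted p = 0.9998).

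The starts of these genes are shown because many of their mRNAs are known to begin with a pyrimidine run. A link between these sequences and the array values was not tested. RefSeq promoter windows of build GRCm38.p6 matched 62 of the 83 genes. The stretches below cover 30 bases before and 30 bases from the annotated start, 5′ to 3′ on the strand of the gene, and capitals mark the longest run of C and T alone. They are Rpl7a (chr2:26910777-26910836, plus strand), Rplp0 (chr5:115559437-115559496, plus strand), Rplp2 (chr7:141447621-141447680, plus strand), Rps6 (chr4:86857338-86857397, minus strand) and Rps10 (chr17:27635215-27635274, minus strand). The paralogs are Rpl22l1 (chr3:28805478-28805537, plus strand) and Rpl10l (chr12:66284372-66284431, minus strand).
Rpl7a: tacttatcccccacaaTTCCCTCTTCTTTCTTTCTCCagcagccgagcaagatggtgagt
Rplp0: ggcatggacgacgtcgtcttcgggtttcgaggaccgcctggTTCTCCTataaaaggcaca
Rplp2: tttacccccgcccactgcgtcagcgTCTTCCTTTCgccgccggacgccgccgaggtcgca
Rps6: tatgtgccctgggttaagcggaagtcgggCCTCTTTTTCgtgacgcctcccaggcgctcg
Rps10: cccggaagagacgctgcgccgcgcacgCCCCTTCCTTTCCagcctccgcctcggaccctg
Rpl22l1: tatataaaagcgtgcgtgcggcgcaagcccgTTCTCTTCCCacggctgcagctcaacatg
Rpl10l: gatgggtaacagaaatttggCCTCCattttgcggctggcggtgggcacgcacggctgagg
The longest run was 21 bases in Rpl7a, 13 in Rps10, 10 in Rplp2, Rps6 and Rpl22l1, 7 in Rplp0 and 5 in Rpl10l. Relative to the annotated start, the run began at -14 in Rpl7a, -10 in Rpl10l, -5 in Rplp2 and -3 in Rps10. It began at -1 in Rps6, 1 in Rpl22l1 and 11 in Rplp0. A marked run therefore need not be the terminal oligopyrimidine motif.

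A run of at least 8 bases of C and T on the strand of the gene, within 30 bases of the start, was found in 35 of the 62 members (56.5%) and in 25.8% of 27025 genes. In windows of 300 bases (250 before the start and 50 from it), letters were searched on both strands. CCGGAAG, a core bound by ETS factors, was in 41.9% of members and 9.93% of genes. AAGATGG, which YY1 is known to bind and which can share its AAG with CCGGAAG, was in 16.1% and 7.28%. CACGTG, the E-box of Myc, was in 9.68% and 8.09%, and TATAAA in 11.3% and 15.7%. These are matches of letters, given as a description, and nothing about the factors follows from them.

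Paralogs did not follow 1 pattern, although 6 of 7 stood above 0 in the main comparison. Rpl10l had the largest difference of all members, 0.36 ± 0.23 (SE, n = 5 and 3; limma adjusted p = 0.9998). It stood at 2.70, 3.48 and 2.96 in Control, at 3.83, 3.19 and 3.31 in siRNA 1 and at 3.56 and 3.17 in siRNA 2. Control replicate 2 lay above 3 of the siRNA arrays. Rpl39l, a paralog of Rpl39, stood at 1.85, 2.57 and 2.06 in Control, at 2.54, 1.98 and 2.06 in siRNA 1 and at 2.35 and 1.96 in siRNA 2. The groups overlapped fully, and the difference was 0.017 ± 0.212 (SE, n = 5 and 3; limma adjusted p = 0.9998).

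Rpl10l and Rpl39l were both highest on Control replicate 2, siRNA 1 replicate 1 and siRNA 2 replicate 1. In all, 11 of the 170 member probes tested had these 3 arrays above the other 5, among them both probes of Rpl10l. That is a smaller share than the 10.4% of all probes. The naive pluripotency markers (15 of 15 listed genes measured) were highest on the same 3 arrays. Relative to the Control mean their median was -0.35, 0.57 and -0.22 in Control, 0.98, 0.295 and 0.29 in siRNA 1 and 0.42 and 0.24 in siRNA 2. Their summed signal, in units of the array's 75th percentile, was 19.5 to 29.7 in Control, 27.0 to 41.8 in siRNA 1 and 27.5 to 32.0 in siRNA 2. All 15 were well above background on all arrays, and their part in the values of the 2 paralogs was not tested.

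Rpl22l1 and Rpl22, a pair in which the loss of Rpl22 is known to raise its paralog, stood on opposite sides of 0. Rpl22 stood at 7.02, 7.06 and 7.06 in Control, at 7.11, 7.26 and 7.09 in siRNA 1 and at 7.17 and 7.23 in siRNA 2, with no overlap. Rpl22l1 stood at 5.89, 5.92 and 5.86 in Control, at 5.88, 5.79 and 5.72 in siRNA 1 and at 5.92 and 5.81 in siRNA 2, with overlap. The differences were 0.13 ± 0.07 and -0.056 ± 0.072 (SE, n = 5 and 3; limma adjusted p = 0.9998 for both). The log2 value of Rpl22l1 minus that of Rpl22 was -1.203 to -1.135 in Control and -1.462 to -1.226 in siRNA arrays, so that all 5 siRNA arrays were lower. After quantile normalization the 2 ranges overlapped, at -1.242 to -1.152 and -1.423 to -1.188. With the other, dimmer probe of Rpl22 they overlapped as well, at 3.449 to 3.616 in Control and 3.454 to 3.785.

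The remaining paralogs varied little. Rps27l, known as a p53 target, had a difference of 0.069, Rps4l of 0.062 and Rpl7l1 of 0.0076. Rpl3l, the paralog of Rpl3 in striated muscle, was the dimmest member, at -4.77 to -4.46 over the 8 arrays, and differed by 0.114. In none of these 4 did all siRNA arrays separate from Control. Of the genes they are named after, Rpl10 differed by 0.151, Rpl7 by 0.160, Rpl3 by 0.103, Rps27 by 0.026 and Rps4x by 0.019.

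**Figure D4:**
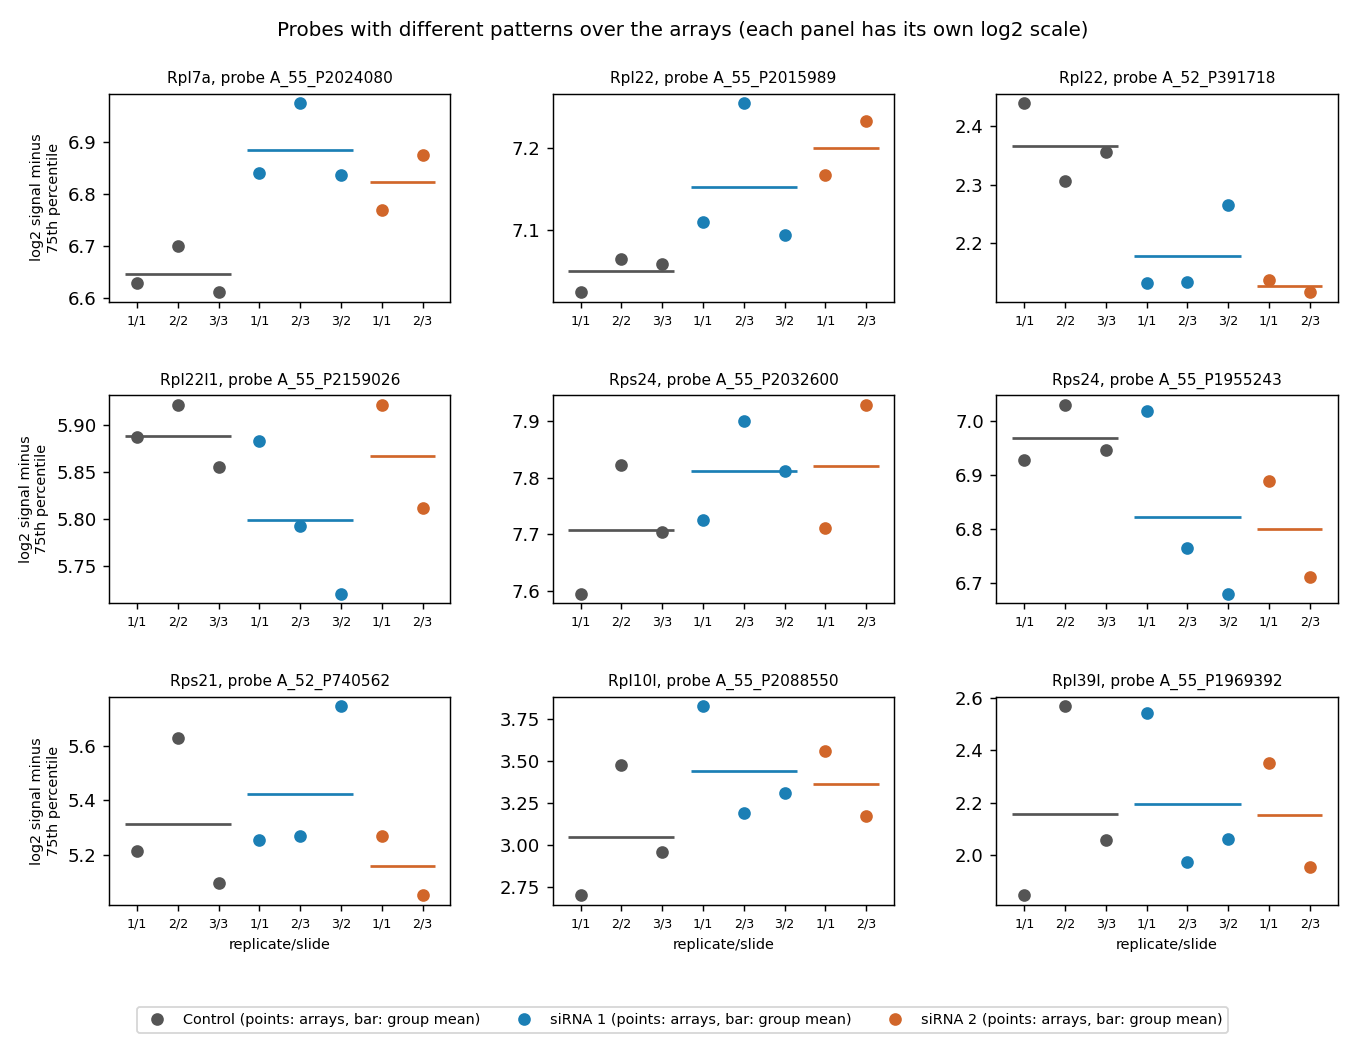
Log2 signal minus the array's 75th percentile for 9 probes of 7 genes, with 1 point for each array, a bar at each group mean and each array named by replicate and slide; every panel has its own scale. The first Rpl22 probe has all 5 siRNA arrays above Control and the second all 5 below, Rps21 is highest on both arrays of slide 2, and Rpl10l and Rpl39l are highest on Control replicate 2, siRNA 1 replicate 1 and siRNA 2 replicate 1.

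The siRNAs were then taken one by one against the same 3 Control arrays, which the 2 comparisons share. For siRNA 1, 74 of 83 members stood above 0 with a median of 0.088, against 58.3% of all genes and a median of 0.0245. Limma called 0 members and 0.0% of genes, with 2 members (Rpl7a and Rpl32) at an unadjusted p under 0.05 against 3.51% of genes. Both were higher, against 2.62% of genes that were higher at that p. All siRNA 1 arrays lay above Control in 17 members, against 5.47% of genes, and below in 0 against 2.48%. Rpl7a differed by 0.24 ± 0.08, Rps20 by 0.24 ± 0.11, Rpl32 by 0.22 ± 0.09 and Rpl8 by 0.197 ± 0.085 (SE, n = 3 and 3), each with a limma adjusted p of 1.0. On the lower side were Rpl21 at -0.13, Rpl22l1 at -0.09, Rpl39 at -0.049 and Rpl7l1 at -0.026. Quantile normalization took the median to -0.0107, with 34 members above 0. The siRNA 1 arrays then lay wholly above Control in 5 members, against 3.51% of genes, and wholly below in 9, against 3.68%.

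For siRNA 2, 73 of 83 members stood above 0 with a median of 0.102, against 49.9% of all genes and a median of -0.00025. Limma called 0 members and 0.0% of genes, with 0 members and 3.36% of genes at an unadjusted p under 0.05. Both siRNA 2 arrays lay above Control in 28 members, against 8.82% of genes. They lay below in 1, Rpl26, against 8.1%, and in Rpl26 only by its brightest probe. By a dimmer Rpl26 probe both siRNA 2 arrays lay above Control, at 6.5645 and 6.5918 against 6.526 to 6.5478. By its dimmest probe the groups overlapped. Rplp0 differed by 0.24 ± 0.11 and Rpl24, which forms a bridge between the subunits, by 0.21 ± 0.10 (SE, n = 2 and 3; limma adjusted p = 0.9997 for both). Rpl24 stood at 7.60, 7.64 and 7.59 in Control and at 7.73 and 7.92 in siRNA 2, without overlap. Rps21 at -0.153, Rps3 at -0.0885, Rpl21 at -0.103 and Rpl26 at -0.065 were lower, while Rpl8 stood at 0.196 and Rpl7a at 0.176. Quantile normalization took the median to -0.017, with 34 members above 0. The siRNA 2 arrays then lay above Control in 5 members, against 8.4% of genes, and below in 9, against 8.09%.

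Set against each other, the siRNAs did not separate the members. The median of siRNA 2 minus siRNA 1 was 0.0031, with 46 of 83 above 0, against -0.0256 and 42.6% for all genes. Limma called 0 members and 0.0% of genes, with 0 members and 3.3% of genes at an unadjusted p under 0.05. Groups did not overlap in 3 members that were higher in siRNA 2 (7.33% of genes) and 4 that were lower (11.7%). After quantile normalization these counts were 10 (10.1%) and 13 (8.87%). Rps21 was lower in siRNA 2 by the largest amount, -0.26 ± 0.21 (SE, n = 2 and 3; limma adjusted p = 0.9999), and Rps3 at -0.17 and Rpl13a at -0.126 were lower as well. By its brightest probe Rpl13a stood at 6.88, 6.91 and 6.81 in siRNA 1 and at 6.74 and 6.74 in siRNA 2, without overlap. By its other probe the groups overlapped, at 5.86, 5.77 and 5.48 in siRNA 1 and 5.92 and 5.76 in siRNA 2. On the higher side were Rps27 at 0.099, Rpl3l at 0.092, Rps27l at 0.082 and Rps9 at 0.078. In 0 of 83 members did the siRNAs lie on opposite sides of Control on every array, as 4.53% of genes did. The sign of the median turned under several settings, among them quantile normalization (-0.0040), and was positive at 0.077 with median scaling.

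**Figure D5:**
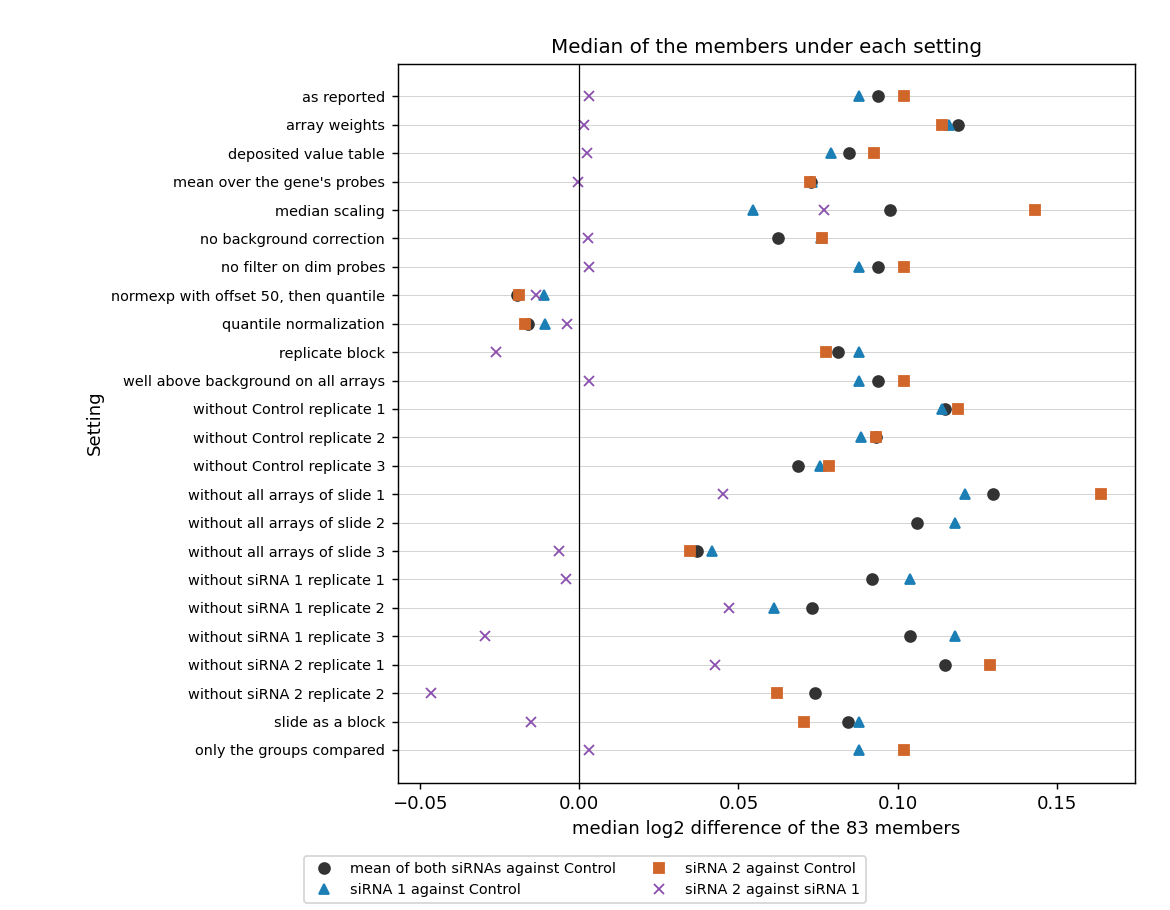
Median log2 difference of the 83 members (horizontal axis) under each processing setting (rows) for 4 comparisons, marked by shape. The 3 comparisons with Control lie above 0 in all rows except quantile normalization and normexp followed by quantile normalization, where they lie between -0.0197 and -0.0107; siRNA 2 against siRNA 1 lies on both sides of 0.

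Slides were compared as a possible batch, with slide 1 holding 1 array of each group. Within groups, the members' median on slide 1 was -0.0204 relative to the other slides, with 35 of 83 above 0, against -0.0288 and 41.9% of all genes. Limma called 0 members and 5.99% of genes, with 3 members and 15.5% of genes at an unadjusted p under 0.05. Of the genes called, 152 (0.678% of genes) were higher on slide 1 and 1192 (5.32%) lower, a split that was 277 and 858 with median scaling, 279 and 770 after quantile normalization and 542 and 777 after normexp. Median scaling moved the median of all genes in this comparison to 0.115 and that of the members to 0.124.

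Rps27a, which is made as a fusion with ubiquitin, differed most between slides, by 0.29 ± 0.08 (SE, n = 3 and 5; limma adjusted p = 0.0952). It stood at 8.28, 8.44 and 8.44 on the arrays of slide 1 and between 7.94 and 8.15 on the other 5, with no overlap. With median scaling it was called, at 0.43 (limma adjusted p = 0.0248). After normexp the calls were Rps27l at 0.28, Rpl17 at 0.375 and Rps25 at 0.26, with limma adjusted p of 0.0194, 0.0407 and 0.0275. Besides Rps27a, Rpl13 was higher on every array of slide 1 (0.170), so 2 members did not overlap in that direction, against 2.88% of genes. Rps3 was lower on every array of slide 1 (-0.20), the only such member, against 10.7%. These values are of each gene's brightest probe, and every other probe of Rps27a, Rpl13 and Rps3 overlapped between slides. A dimmer Rps27a probe stood at 6.2969 to 6.5044 on slide 1 and 6.2028 to 6.6049 elsewhere. The dimmer Rps3 probe stood at 3.0297 to 3.1409 on slide 1 and 2.9023 to 3.1985 elsewhere. Rpl21 at 0.28, Rps18 at 0.163, Rps24 at -0.168, Rpsa at -0.144 and Rpl41 at -0.119 overlapped between slides.

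Some member probes were highest on the arrays of slide 2. Rps21 stood at 5.63 on Control replicate 2 and 5.74 on siRNA 1 replicate 3, the arrays of slide 2, and between 5.05 and 5.27 on the other 6. Rps3 was also highest on these arrays, at 6.54 and 6.56, with 6.22 to 6.52 elsewhere. In all, 7 of the 170 member probes tested were highest on both, among them 2 of the 7 probes of Rpl17. That is a smaller share than the 8.76% of all probes. What separates slide 2 was not tested.

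Probes of the same gene did not always point the same way. Of the 170 member probes tested, 140 stood higher in the main comparison and 30 lower, with a median of 0.068, or -0.0178 after quantile normalization. Among the 87 probes that were not the brightest of their gene, 64 stood higher, with a median of 0.049. Several probes were tested for 52 genes, of which 31 had all probes higher, 2 all lower and 19 probes of both signs. The median gap between the highest and the lowest probe of a gene was 0.073. By the brightest probe of a gene, all siRNA arrays were above Control in 2.47% of all genes and below in 0.985%. The shares over all probes were not counted. Among the member probes tested, all siRNA arrays were above Control in 20 and below in 1.

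That 1 probe was the second of Rpl22. It stood at 2.44, 2.31 and 2.36 in Control, at 2.13, 2.13 and 2.27 in siRNA 1 and at 2.14 and 2.12 in siRNA 2. The difference was -0.21, against 0.13 by the brighter probe. Rps24, whose mRNA is known to be spliced in several forms, had probes at 0.109, 0.013 and -0.157. Its lowest probe stood at 6.93, 7.03 and 6.95 in Control, at 7.02, 6.77 and 6.68 in siRNA 1 and at 6.89 and 6.71 in siRNA 2, and overlapped through siRNA 1 replicate 1. Which transcripts these probes read is not known here.

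Further genes had probes of both signs. The lowest and highest probes stood at -0.058 and 0.144 for Rpl14, -0.108 and 0.179 for Rpl23, -0.127 and 0.0078 for Rpl31, and -0.053 and 0.198 for Rpl6. They stood at -0.042 and 0.132 for Rpl36, -0.062 and 0.056 for Rpl17, -0.102 and 0.0084 for Rpl39, and -0.029 and 0.21 for Rps27a. For Rpl13a, Rpl15, Rpl26, Rpl27a, Rpl35a, Rpl36a, Rps15a and Rps25 every probe lay between -0.080 and 0.157. Ribosomal protein genes have many processed pseudogenes with near-identical sequence, so a probe's signal may not come from 1 gene alone.

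Genes of the wider translation machinery were counted in the same fits, and limma called none of them in the main comparison. Ribosomal proteins outside the name rule stood higher in 4 of 4 (median 0.113), with Rack1, a scaffold on the small subunit, at 0.168 and Fau, the fusion that yields Rps30, at 0.150. Elongation factors and other mRNAs with the pyrimidine motif stood higher in 14 of 14 (median 0.072), led by Eef1a1, which delivers tRNA to the ribosome, at 0.179 and Nap1l1 at 0.165. Initiation factors stood higher in 28 of 33 (median 0.049), with the helicase Eif4a1 at 0.109 and Eif4b at 0.122. Ribosome biogenesis genes stood higher in 52 of 68 (median 0.034), with Npm1 at 0.144 and Nolc1 at 0.127. The siRNAs differed in these counts. For siRNA 1, 10 of 14 elongation, 23 of 33 initiation and 38 of 68 biogenesis genes stood higher, against 58.3% of all genes. For siRNA 2 these were 14 of 14, 27 of 33 and 54 of 68, against 49.9%. The biogenesis median was 0.011 for siRNA 1 and 0.076 for siRNA 2.

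Mitochondrial ribosomal proteins, which build a separate ribosome, stood higher in 50 of 77 with a median of 0.0216, led by Mrpl39 at 0.162 and Mrpl42 at 0.099. RNA polymerase I and its factors stood higher in 9 of 14 (median 0.0083), with Taf1d at -0.162 and Ubtf at 0.132. In the mTOR list 16 of 20 stood higher (median 0.033). Tsc2, an inhibitor of mTOR, stood at -0.24, with a limma adjusted p of 0.9998. It was the only gene of these lists at an unadjusted limma p under 0.05, against 3.58% of all genes. Myc stood at 0.194. The p53 targets, which respond to unassembled ribosomal proteins, stood higher in 7 of 12 (median 0.0066), with Cdkn1a at -0.29 and Zmat3 at -0.127.

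Marker genes of the cell types in embryoid bodies were counted in the same way, and limma called 0 of them. Naive pluripotency markers stood higher in 15 of 15 with a median of 0.47, Fgf4 at 0.44 and Gbx2 at 0.48. Primitive and visceral endoderm markers stood lower in 15 of 17 (median -0.59; Foxa2 -0.93, Cubn -0.83), with a summed signal of 45.2 to 73.3 in Control, 44.2 to 61.6 in siRNA 1 and 44.0 to 47.4 in siRNA 2. Primitive streak and mesoderm markers stood lower in 11 of 15 (median -0.39; Fgf8 -1.08, Flt1 -0.39), with sums of 11 to 12.4, 8.17 to 11.6 and 8.06 to 8.44. Neuroectoderm markers stood lower in 6 of 8 (median -0.059; Sox3 0.186, Nes -0.20), with sums of 37.5 to 39.5, 38.8 to 41.9 and 39.1 to 40.9. Fibroblast markers stood lower in 7 of 11 (median -0.124; Col6a1 -0.67, Fap -1.34), with sums of 13.5 to 18.6, 12.6 to 18.3 and 15.8 to 17.1. The siRNAs differed in some of these lists. Against Control, the endoderm median was -0.193 for siRNA 1 (12 of 17 lower) and -1.11 for siRNA 2 (16 of 17 lower). The streak and mesoderm median was -0.117 for siRNA 1 (8 of 15 lower) and -0.467 for siRNA 2 (13 of 15 lower). No listed marker was below background on all arrays, and the part of these cell types in the ribosomal protein values was not tested.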

How the data were processed

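Total RNA was measured on 8 1-colour (Cy3) arrays. Per the file headers, the authors extracted spot intensity with Agilent Feature Extraction 10.7.3.1. Its processed intensity is corrected for background and not scaled between arrays. A deposited value table on the log2 scale follows the same values, centred on each probe's median over the arrays. Its columns for Control replicates 2 and 3 each follow the other's scanner file, so scanner files were used. RMA is named, without a role, in the submitters' processing notes.

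Spots marked as controls or outliers were dropped, and repeated spots of a probe averaged. Main values were log2 processed intensity minus the array's 75th percentile. Accessions were matched without versions to RefSeq (GRCm38.p6), which named 26424 of 39429 probes and left 13005 unnamed. The array design used mm9. A probe was tested where all arrays of 1 or more groups measured it well above background, and a gene took its brightest probe, which left 22427 genes, 15570 of them named. Limma 3.58.1 (R 4.3.3; lmFit, eBayes) was fitted over the 3 groups with no block, with 5 residual and 2.08 prior degrees of freedom. Calls needed a Benjamini-Hochberg adjusted p under 0.05. The precision is limited by the number of arrays. The fit was tested on simulated data.

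The members and gene lists were chosen with earlier results of these data known. Genes named were, in each comparison and direction, the 4 of lowest p, paralogs and their namesakes, stalk proteins and Rpsa, the most and least variable members, members with probes of both signs, and 2 genes of each list. Rpl12 and Rps10, and the genes whose sequences are shown, were chosen after their values were seen. A few values of single members are not reported here. Alternatives were other scalings, background corrections, filters, probe rules, blocks, array weights and leaving out arrays or slides. The scanner files hold a median spot intensity, which served for normexp (offset 50) and for no background correction. Whether replicate numbers pair the samples depends in part on the names of Control replicates 2 and 3, which are unsettled. With the scanner files' names, used here, correlations of same-numbered arrays' deviations ran from -0.041 to 0.698, and 3 of 7 pairs did not exceed 0.1. With the value table's names, number and slide coincide, the range was 0.044 to 0.698 and 1 of 7 did not exceed 0.1. The numbers were therefore not treated as pairing.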

Additional observations from a re-analysis of the deposited data

How the results depend on the processing

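No member was called under any alternative in the 4 comparisons of groups. Under quantile normalization the medians turned to -0.016 (32 of 83 above 0) for both siRNAs against Control, -0.0107 (34) for siRNA 1 and -0.017 (34) for siRNA 2. Under normexp followed by quantile normalization they were -0.0197 (33), -0.0112 (36) and -0.0189 (35). The other alternatives kept the 3 medians above 0. Without slide 3 they were 0.0369 for both (59 above 0), 0.0417 for siRNA 1 (59) and 0.0347 for siRNA 2 (60), and without slide 1 that of siRNA 2 was 0.164. Leaving out 1 array at a time gave 0.0686 to 0.115 for both (67 to 78 above 0), 0.061 to 0.118 for siRNA 1 (65 to 79) and 0.0621 to 0.129 for siRNA 2 (63 to 74). The median of siRNA 2 against siRNA 1 was 0.0768 (71 above 0) with median scaling, -0.00053 with the mean over a gene's probes, -0.00402 under quantile normalization, -0.0136 under normexp, -0.0151 with slide as a block and -0.00635 without slide 3. With 1 array left out it ran from -0.0465 to 0.0471, with 24 to 63 above 0. The replicate number as a block took it to -0.0262 (26 above 0), and that block gave 0.0814 for both siRNAs, with no call. Slide as a block, which equals the replicate number if the value table's names of Control replicates 2 and 3 hold, gave 0.0843 (77 above 0) for both, 0.0878 (74) for siRNA 1 and 0.0707 (72) for siRNA 2. For slide 1 against the others, median scaling gave 0.124 (81 above 0, 1 called) and normexp 0.00924 (3 called). Why values moved was not tested. In the main comparison, 8 of 24 named genes changed sign under quantile normalization and 14 moved by more than the SD within groups; under normexp these were 6 and 11. Over the comparisons, 15 of 96 values changed sign under these scalings, and 59 of 1000 under all alternatives, some of which cannot move a value. Where 1 siRNA 2 array was left, it was assumed to vary like the other groups.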
